A study of Mus musculus with 20 samples.

Results

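Rasgrf2, Cux2, Lamp5, Rorb, Tbr1, Fezf2 and Foxp2 are genes by which the layers of the mouse neocortex are told apart, and they were followed here in RNA of the hippocampus. The 7 genes were taken by symbol from the 48709 genes of the count table, and all 7 were among the 19797 genes that passed the filter on low counts. The libraries came from 20 young adult C57BL/6 mice (C57BL/6J in the methods), with 5 in each of 4 groups: females and males of dams that breathed filtered air (Ct_F and Ct_M), and females and males of dams that breathed nPM (nPM_F and nPM_M). nPM is re-aerosolized nanosized particulate matter of urban air, given to the dams for 5 h/day on 3 days/week from gestational day 2 until birth, at a level that the labels give as 300 mg/m3 and the methods in µg. Labeled ages were 17.71 to 18.29 weeks in females and 18.57 to 19.14 weeks in males, so that sex and age cannot be told apart. The offspring were not exposed after birth, the litter of each mouse is not in the labels, some of the 10 mice of an exposure had the same dam, since the methods give 5 litters per exposure, and the males of the study are described as injected with the nucleoside EdU. No neocortical sample was among the 20 libraries.

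The neocortex is built of layers of excitatory neurons with different targets. Rasgrf2, Cux2 and Lamp5 are used as markers of its upper layers, Rorb of its middle, thalamus-receiving layer, and Tbr1, Fezf2 and Foxp2 of its deep, output layers. The neocortex lies over the hippocampus and meets it through the subiculum, so a dissected hippocampus can carry neighboring cortex. None of the 7 genes is exclusive to neocortex: Lamp5 is also found in a class of interneurons, Tbr1 in hippocampal and subicular pyramidal neurons, Rorb and Foxp2 in thalamus, and Foxp2 in striatum. In RNA of whole tissue, fewer cells of a type and less RNA per cell cannot be told apart.

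Total counts were 19092067 to 38663408 per library, and TMM factors were 0.958 to 1.06. All genes of the lists for dentate granule cells, CA1 and CA3 passed the filter, and none of them was at 0 in any library. A trio of libraries stood apart in marker lists. In nPM_F 1 (nPM female, replicate 1), the summed level of 12 striatal genes was 643 CPM, the count scaled to the library size, against 153.9 to 219.8 in the other libraries. In nPM_M 1 the 6 CA1 genes were at their lowest sum, 314 CPM against 351 to 527 in the other libraries. In Ct_M 1 the 5 dentate granule cell genes were at theirs, 116 CPM against 179 to 424. The thalamic sum of Ct_F 3 was also apart, 194 CPM against 119 in the next highest library, but Ct_F 3 is not counted in the trio. Nor is nPM_F 3, whose CA1 sum was the highest, 527 CPM against 483 in Ct_F 2. Values without the trio are given beside the results that moved most. For each of 40 pairs of libraries within a group, the mean squared difference over genes exceeded that of counting alone by a factor of 14.1 to 76.7, so that no pair was alike within sampling noise.

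The strongest shared variation was between Cux2, Lamp5 and Tbr1, and for these 3 genes the 250 bases before the RefSeq start site (GRCm38.p6) are shown to compare their base composition. Where RefSeq gave more than 1 start site, as for Cux2 and Lamp5 (2 each), the one nearest to the 5′ end of the counted gene was taken. These start sites lay 1523 bases (Tbr1), 251 bases (Cux2) and 100 bases (Lamp5) inside the counted genes, so that the Tbr1 and Cux2 windows are within the counted genes and the last 100 bases of the Lamp5 window are. CG dinucleotides are in capitals.
Tbr1, chr2:61804203-61804452, plus strand: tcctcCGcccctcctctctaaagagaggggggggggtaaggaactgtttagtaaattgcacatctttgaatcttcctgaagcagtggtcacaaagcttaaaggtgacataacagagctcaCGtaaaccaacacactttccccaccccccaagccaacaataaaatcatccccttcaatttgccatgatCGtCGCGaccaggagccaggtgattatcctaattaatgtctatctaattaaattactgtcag
Lamp5, chr2:136052089-136052338, plus strand: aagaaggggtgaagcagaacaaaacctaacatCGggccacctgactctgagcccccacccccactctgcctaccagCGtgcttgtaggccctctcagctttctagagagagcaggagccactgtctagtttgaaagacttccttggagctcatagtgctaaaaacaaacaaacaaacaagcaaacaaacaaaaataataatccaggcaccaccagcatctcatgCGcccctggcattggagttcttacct
Cux2, chr5:122049852-122050101, minus strand: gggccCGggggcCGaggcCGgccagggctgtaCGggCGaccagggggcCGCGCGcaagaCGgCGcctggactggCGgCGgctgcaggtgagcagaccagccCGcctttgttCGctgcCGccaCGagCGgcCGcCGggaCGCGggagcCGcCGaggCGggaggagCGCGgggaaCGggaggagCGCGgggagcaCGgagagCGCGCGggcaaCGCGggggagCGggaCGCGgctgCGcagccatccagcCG
The Cux2 sequence held 40 CG and was 80.0% G and C, the Tbr1 sequence held 5 CG at 45.2%, and the Lamp5 sequence held 3 CG at 49.2%. The median of all promoters in the table was 6 CG in the same window. Of the 3 genes, Cux2 thus stood apart in base composition from Tbr1 and Lamp5. In the windows of 300 bases (250 before and 50 after the start site) of the 6 members in the table, none of the letters AGGTGTGA (T-box), AGGTCA (nuclear receptor half-site), GTAAACA (forkhead) and ATCAAT (Cut homeodomain) occurred on either strand. These letters occurred in 1.28%, 16.3%, 3.65% and 7.54% of 32851 promoters.

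All 7 genes were detected in every library, at levels that differed widely between them. Per length, as reads scaled to transcript length and library size (RPKM), the mean level over the 20 libraries was 14.7 ± 1.93 (SD) for Rasgrf2, 8.79 ± 2.57 for Lamp5, 7.003 ± 1.42 for Fezf2, 6.06 ± 1.59 for Tbr1, 5.28 ± 1.17 for Rorb, 2.66 ± 0.928 for Cux2 and 0.535 ± 0.402 for Foxp2. The ranges of every pair of neighbors in this order overlapped. Rorb was nonetheless above Cux2, and Cux2 above Foxp2, in 20 of 20 libraries, Rasgrf2 was above Lamp5 in 19, Tbr1 was above Rorb in 18, and Lamp5 above Fezf2 and Fezf2 above Tbr1 in 16 each. Rasgrf2 stood at the 83.5th percentile of the genes tested and Foxp2 at the 17.8th.

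**Figure D1:**
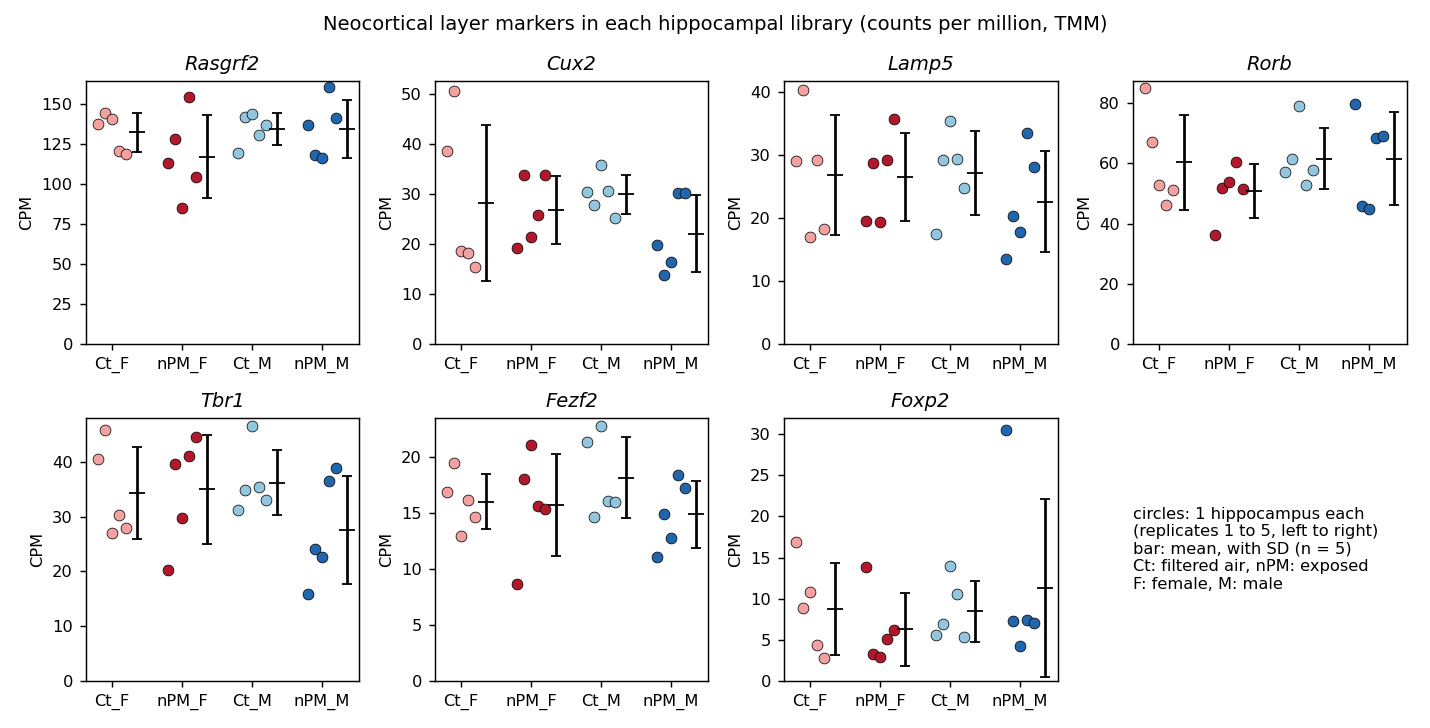
Each circle is the level of a layer marker in 1 hippocampal library, in CPM after TMM scaling on an axis from 0, by group, with the group mean and SD (n = 5) as the bar beside it. The ranges of the groups overlap for each gene, and Foxp2 in nPM_M 1 (30.5 CPM) stands far above the other 19 libraries.

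Among the upper-layer genes, Rasgrf2, which encodes a guanine nucleotide exchange factor for Ras and Rac, varied least. It lies at chr13:91880400-92131656 (mm10, minus strand) and was read 2457 to 5816 times per library. Its level ran from 85.3 CPM in nPM_F 3 to 160.7 CPM in nPM_M 4, a ratio of 1.89, with a median of 133.7. The group means were 132 ± 12 (SD, n = 5) in Ct_F, 117 ± 26.1 in nPM_F, 135 ± 9.84 in Ct_M and 135 ± 18.2 in nPM_M.

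Cux2, a Cut-family homeodomain factor of upper-layer neurons, lies at chr5:121856366-122050102 (minus strand) and was read 346 to 1329 times. Its levels were 38.7, 50.8, 18.7, 18.2 and 15.4 CPM in Ct_F 1 to 5 and 19.2, 34.0, 21.6, 25.9 and 33.9 CPM in nPM_F 1 to 5. In males they were 30.5, 27.9, 35.9, 30.6 and 25.2 CPM in Ct_M 1 to 5 and 19.9, 13.8, 16.5, 30.2 and 30.3 CPM in nPM_M 1 to 5. The highest library was 3.69 times the lowest, and both Ct_F 1 and Ct_F 2 were above every other library. The groups of each sex overlapped. The gene spans of the antisense genes Gm3970 and Gm15637 lie within that of Cux2, but they shared 0 exon bases with it and had a median of 0 counts.

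Lamp5, which encodes a lysosome-associated membrane protein of neurons, lies at chr2:136052239-136069917 (plus strand) and was read 410 to 1210 times. Its levels were 29.1, 40.4, 17.1, 29.2 and 18.2 CPM in Ct_F 1 to 5 and 19.5, 28.8, 19.4, 29.2 and 35.8 CPM in nPM_F 1 to 5. In males they were 17.5, 29.2, 35.3, 29.3 and 24.7 CPM in Ct_M 1 to 5 and 13.5, 20.3, 17.8, 33.4 and 28.0 CPM in nPM_M 1 to 5. Ct_F 2 was highest, as for Cux2, nPM_M 1 was lowest, and the groups of each sex overlapped.

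Rorb, a nuclear receptor of the middle layer, lies at chr19:18930605-19111196 (minus strand) and was read 1083 to 3005 times. Its levels were 84.8, 67.0, 52.7, 46.0 and 51.0 CPM in Ct_F 1 to 5 and 36.3, 51.7, 53.7, 60.6 and 51.6 CPM in nPM_F 1 to 5. In males they were 57.0, 61.4, 78.9, 52.7 and 57.8 CPM in Ct_M 1 to 5 and 79.7, 45.9, 44.99, 68.3 and 68.9 CPM in nPM_M 1 to 5. nPM_M 1, lowest of all for Lamp5, was second highest for Rorb, while nPM_F 1 was lowest.

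Among the deep-layer genes, Tbr1, a T-box factor of early-born excitatory neurons, lies at chr2:61802930-61814114 (plus strand) and was read 596 to 1357 times. Its levels were 40.5, 45.8, 27.0, 30.2 and 27.9 CPM in Ct_F 1 to 5 and 20.2, 39.5, 29.8, 41.1 and 44.6 CPM in nPM_F 1 to 5. In males they were 31.3, 34.8, 46.5, 35.4 and 33.0 CPM in Ct_M 1 to 5 and 15.8, 24.0, 22.7, 36.5 and 38.9 CPM in nPM_M 1 to 5. The lowest library was nPM_M 1 and the highest was Ct_M 3, a ratio of 2.95, and 3 of the 5 nPM males were below all 5 control males.

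Fezf2, a zinc finger factor of subcortically projecting neurons, lies at chr14:12341892-12345865 (minus strand) and was read 261 to 664 times. Its level ran from 8.63 CPM in nPM_F 1 to 22.8 CPM in Ct_M 3, with a median of 16.0 and a ratio of 2.64. The group means were 16.0 ± 2.45 CPM (SD, n = 5) in Ct_F, 15.7 ± 4.58 in nPM_F, 18.2 ± 3.65 in Ct_M and 14.9 ± 3.01 in nPM_M.

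Foxp2, a forkhead factor of deep-layer, thalamic and striatal neurons, lies at chr6:14901349-15441977 (plus strand) and was read least, 63 to 1151 times. Its levels were 16.9, 8.83, 10.8, 4.31 and 2.80 CPM in Ct_F 1 to 5 and 13.9, 3.29, 2.95, 5.09 and 6.17 CPM in nPM_F 1 to 5. In males they were 5.63, 6.97, 13.96, 10.6 and 5.31 CPM in Ct_M 1 to 5 and 30.5, 7.34, 4.30, 7.35 and 6.99 CPM in nPM_M 1 to 5. The range was 10.9 times, and nPM_M 1 was far above the second highest library, Ct_F 1.

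The spread between mice of the same group was far above counting noise for each layer marker. Within groups, the SD of log2 CPM was 0.21 for Rasgrf2, 0.31 for Rorb, 0.34 for Fezf2, 0.41 for Tbr1, 0.46 for Lamp5, 0.50 for Cux2 and 0.92 for Foxp2. The median over all genes tested was 0.26. Foxp2 was at the 94.9th percentile, Cux2 at the 77.7th and Rasgrf2 at the 40.6th. These SDs were 4.98 (Fezf2) to 9.28 (Cux2) times the SD that counting gives. Between 79.9% (Rasgrf2) and 92.3% (Lamp5) of the variance over the 20 libraries lay within the 4 groups. With 4 groups of 5, labels unrelated to the levels also leave most of the variance within groups, so these shares alone show little.

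The layer markers moved together from library to library. Of the 21 pairs, 18 had a positive Pearson r of log2 CPM over the 20 libraries, and 7 pairs passed an adjusted permutation p of 0.05 (Benjamini-Hochberg over the 21 pairs), all of them positive. The median r of the 21 pairs was 0.41, against -0.0044 over the 195950706 pairs of genes tested. An r of at least 0.56, reached by these 7 pairs (33.3% of 21), was reached by 7.37% of all pairs of genes. Foxp2 was in none of the 7 pairs. Without Foxp2, 15 of 15 pairs were positive, with a median r of 0.50.

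The closest pair was Lamp5 and Tbr1, an upper-layer and a deep-layer gene, with r = 0.88 (permutation p = 1e-05, the smallest that 100000 permutations give; adjusted p = 0.00021) and Spearman's rho = 0.83 (permutation p = 1e-05). The r was 0.85 in the 10 females and 0.91 in the 10 males, 0.84 without the 2 libraries farthest from the median of Lamp5, and 0.88 in residuals from the 4 group means. Cux2 and Tbr1 had r = 0.79 (permutation p = 3e-05, adjusted p = 0.000315) and rho = 0.85 (permutation p = 1e-05), with 0.83 in females, 0.79 in males and 0.77 without the 2 farthest libraries. Cux2 and Lamp5 had r = 0.74 (permutation p = 0.00023, adjusted p = 0.00161) and rho = 0.63 (permutation p = 0.00344), with 0.82 in females, 0.66 in males and 0.70 without the 2 farthest libraries. These 3 pairs were called under each of the alternatives tried.

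Tbr1 and Fezf2, both of deep layers, had r = 0.72 (permutation p = 0.00041, adjusted p = 0.00215) and rho = 0.65 (permutation p = 0.00249), with r = 0.70 in females, 0.83 in males and 0.52 without the 2 farthest libraries. Cux2 and Rorb had r = 0.59 (permutation p = 0.00632, adjusted p = 0.0265) and rho = 0.59 (permutation p = 0.00707), with 0.65 in females, 0.58 in males and 0.55 without the 2 farthest. Rasgrf2 and Rorb had r = 0.57 (permutation p = 0.0093, adjusted p = 0.0279) and rho = 0.74 (permutation p = 0.0003), with 0.43 in females, 0.75 in males and 0.73 without the 2 farthest. Cux2 and Fezf2 had r = 0.56 (permutation p = 0.00874, adjusted p = 0.0279) and rho = 0.65 (permutation p = 0.00256), with 0.48 in females, 0.71 in males and 0.58 without the 2 farthest. The last 3 pairs were not called without Ct_M 3 or without nPM_M 3, where 4 pairs remained.

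The order of the pairs did not follow the layers. Of the 3 pairs within the upper layers 1 was called, of the 3 within the deep layers 1, of the 9 between upper and deep layers 3, and of the 3 between Rorb and upper layers 2. The median r was 0.37 within upper layers, -0.22 within deep layers and 0.41 between upper and deep layers. Both deep-layer partners were negative with Foxp2 over the 20 libraries: r was -0.22 for Tbr1 (permutation p = 0.344) and -0.33 for Fezf2 (permutation p = 0.151). These signs were not stable. Without nPM_M 1, r with Foxp2 was 0.14 for Tbr1 and -0.17 for Fezf2. Without the 2 libraries farthest from the median of Tbr1 or Fezf2, it was 0.39 and 0.10. Spearman's rho over the 20 libraries was 0.06 and -0.09.

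Library nPM_M 1 parted the layer markers. It held the highest Foxp2 and the second highest Rorb, and the lowest Tbr1 and Lamp5. Without it, 10 of the 21 pairs were called: the r of Rorb with Tbr1 was 0.78 in place of 0.39 (adjusted permutation p = 0.00049 in place of 0.166), that of Rorb with Fezf2 was 0.68 in place of 0.45, and that of Lamp5 with Rorb was 0.56 in place of 0.29. Without nPM_M 1, nPM_F 1 and Ct_M 1, a choice made after seeing the data, 13 pairs were called, Foxp2 with Rasgrf2 (r = 0.53) and with Rorb (r = 0.64) among them.

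**Figure D2:**
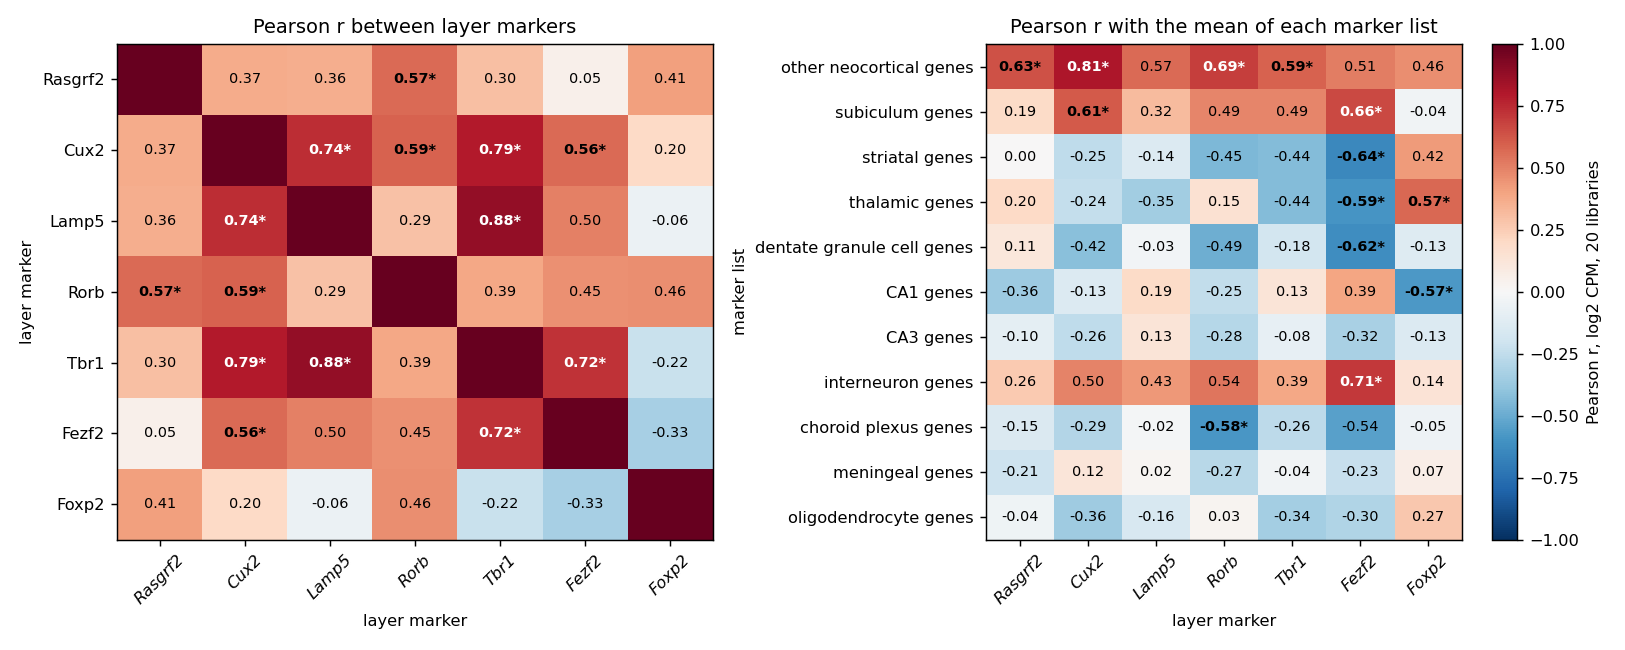
Left, Pearson r of log2 CPM between the 7 layer markers over 20 libraries; right, r of each layer marker with the mean log2 CPM of each marker list. Color gives r from -1 to 1, and an asterisk marks an adjusted permutation p under 0.05 (over 21 pairs on the left and 77 relations on the right). Cux2, Lamp5 and Tbr1 form the block of highest r on the left, and the first row on the right, other neocortical genes, is positive for 7 of 7 layer markers.

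As a description, the first principal component of the 7 standardized log2 levels held 51.7% of their variance, with loadings of 0.48 for Tbr1, 0.47 for Cux2, 0.44 for Lamp5, 0.38 for Fezf2, 0.36 for Rorb, 0.27 for Rasgrf2 and 0.04 for Foxp2. The second held 25.8%, with Foxp2 at 0.68, Rasgrf2 at 0.45 and Rorb at 0.38 opposite Fezf2 at -0.33 and Tbr1 at -0.25. All 7 layer markers were above their own medians in Ct_F 1, Ct_F 2, Ct_M 3 and nPM_M 4, and none was in Ct_F 5 and nPM_M 3. On the first component the 3 highest libraries were controls (Ct_F 2 at 3.10, Ct_M 3 at 3.01 and Ct_F 1 at 2.16) and the 4 lowest were exposed (nPM_F 1 at -3.45, nPM_M 3 at -2.62, nPM_M 2 at -2.22 and nPM_M 1 at -2.21). The ranges of the groups overlapped: Ct_F ran from -1.90 to 3.10, nPM_F from -3.45 to 1.08, Ct_M from 0.04 to 3.01 and nPM_M from -2.62 to 1.86.

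**Figure D3:**
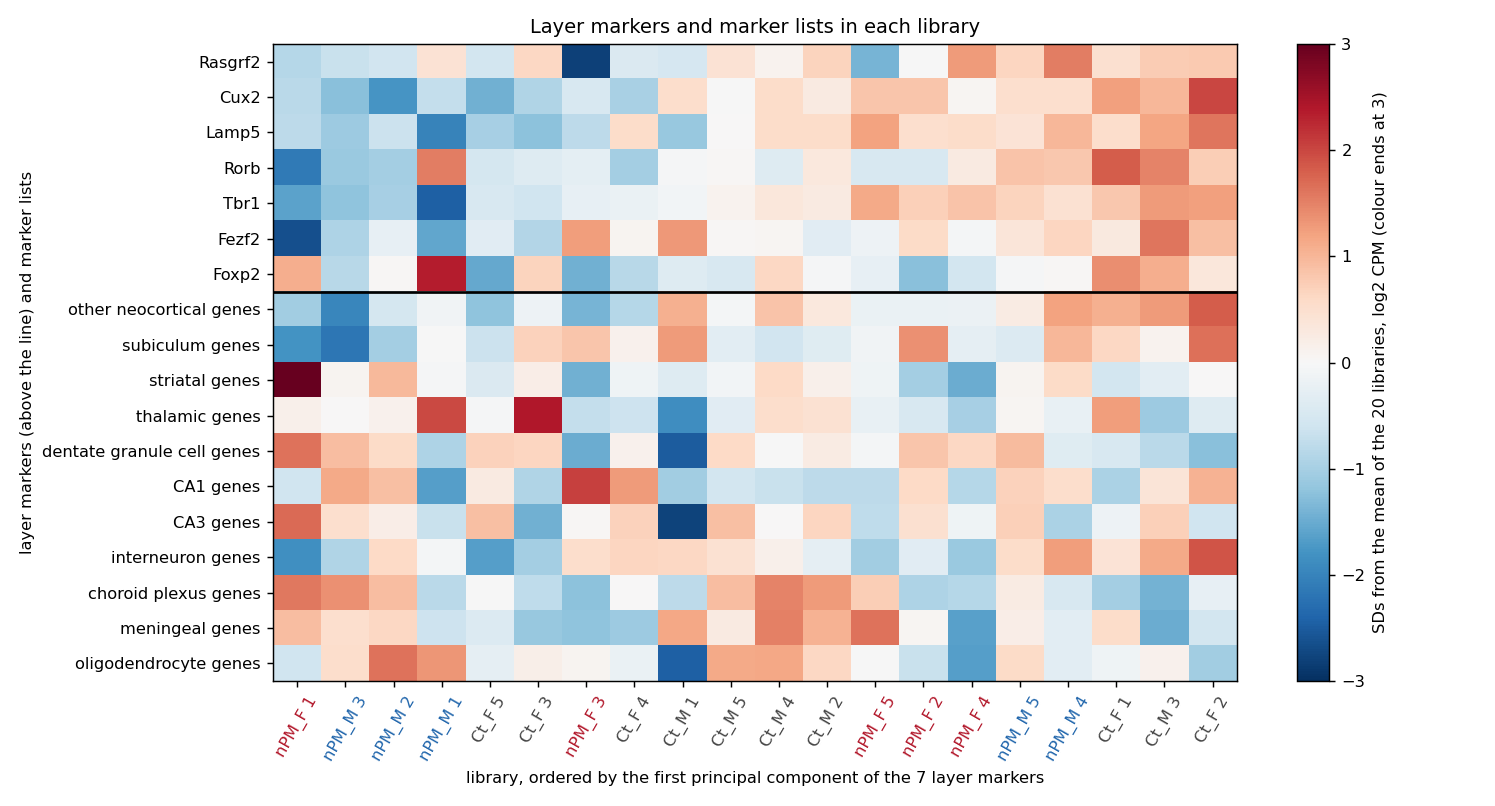
Standardized log2 CPM of the 7 layer markers (above the line) and mean log2 CPM of the 11 marker lists (below) in each library, with libraries ordered by the first principal component of the layer markers and names of exposed libraries in color. The 4 libraries at the low end are exposed and the 3 at the high end are controls, with both kinds between them, and nPM_M 1 is low for Lamp5, Tbr1 and Fezf2 but high for Rorb and Foxp2.

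Each layer marker was then set against 11 lists of genes of cortex, hippocampal fields and neighboring tissue, which were chosen with earlier results of these data known. The list of other neocortical genes had a positive r with 7 of 7 layer markers and 4 of the 13 relations past the adjusted threshold, the most of any list. The interneuron list also had a positive r with 7 of 7, with 1 such relation. The 16 other neocortical genes were all past the filter, and their sum was 245 to 401 CPM in Ct_F, 259 to 317 in nPM_F, 313 to 390 in Ct_M and 264 to 367 in nPM_M, with no gene at 0 in any library. With the mean log2 CPM of the other neocortical genes, Cux2 had r = 0.81 (permutation p = 2e-05, adjusted p = 0.00154 over 77 relations) and rho = 0.74 (permutation p = 0.00035), with r = 0.86 in females, 0.83 in males and 0.74 without the 2 farthest libraries. Rorb had r = 0.69 (adjusted permutation p = 0.0223), Rasgrf2 0.63 (0.0348) and Tbr1 0.59 (0.0495). Without nPM_F 1 these were 0.67 (adjusted permutation p = 0.0511), 0.62 (0.0704) and 0.55 (0.0974), and that of Cux2 was 0.80 (0.00231). Lamp5 (0.57, adjusted permutation p = 0.0533), Fezf2 (0.51, 0.0939) and Foxp2 (0.46, 0.142) did not pass. Of all genes tested outside the list, 4.70% were at least as far from 0, in either direction, as the weakest relation that passed among the 77 (|r| = 0.57).

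Single genes of that list varied in their likeness to the layer markers. Cplx3, a complexin of deepest-layer neurons, had r = 0.74 with Cux2 and 0.71 with Fezf2. Otof, which encodes otoferlin, had r = 0.75 with Rasgrf2 and 0.71 with Rorb. With Cux2, 15 of the 16 genes were positive and 7 were at or above 0.56. The list thus was not uniform: with Foxp2, 1 of the 16 was at or above 0.56. Among all pairs of genes tested 7.37% reached that r, and the shares for Cux2 or Foxp2 alone are not given.

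**Figure D4:**
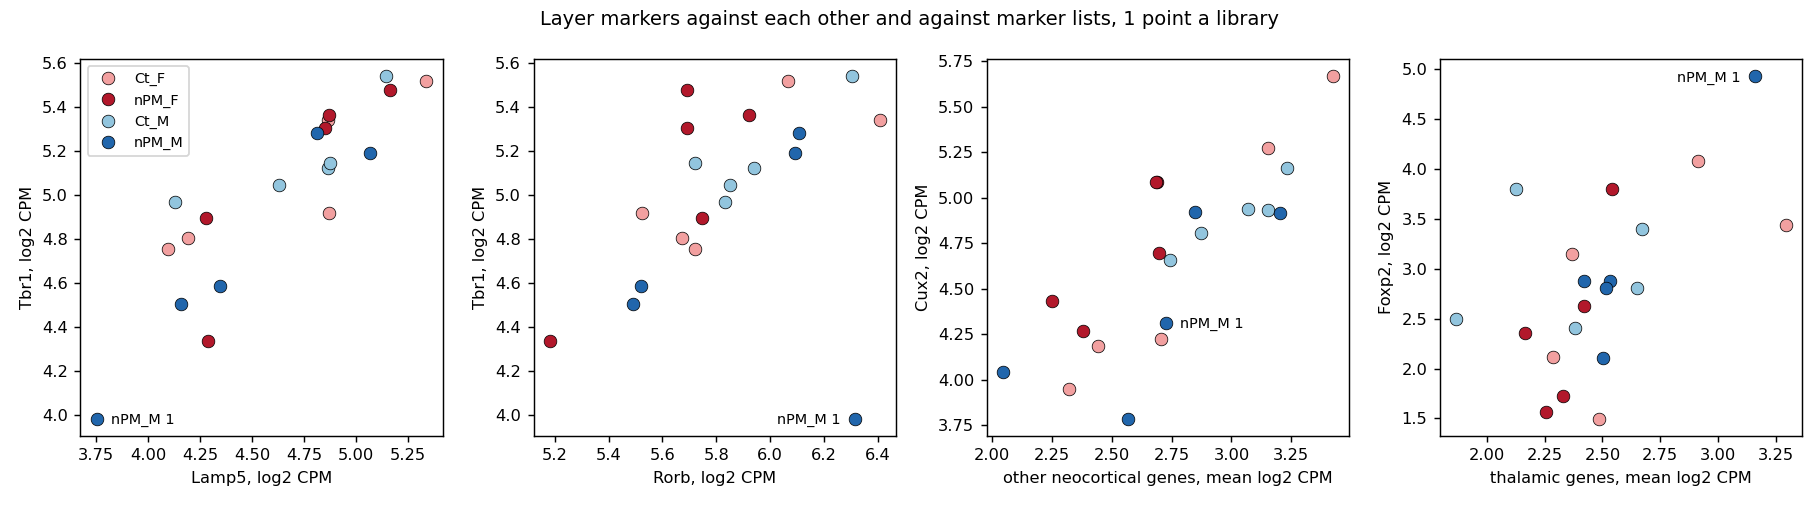
Each point is 1 library, in log2 CPM, colored by group, with nPM_M 1 named. From left: Tbr1 against Lamp5 (r = 0.88), Tbr1 against Rorb (r = 0.39, and 0.78 without nPM_M 1), Cux2 against the mean of the other neocortical genes (r = 0.81) and Foxp2 against the mean of the thalamic genes (r = 0.57, and 0.43 without nPM_M 1).

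Fezf2 held 5 of the 13 relations past the adjusted threshold, all with lists of hippocampal or neighboring tissue. It was positive with the mean of 10 interneuron genes (r = 0.71, permutation p = 0.00035, adjusted p = 0.0135), where 7.27% of the other genes tested were past 0.57 in either direction, and with that of 5 subicular genes (r = 0.66, adjusted permutation p = 0.0287), where 6.38% were. It was negative with the means of 12 striatal genes (r = -0.64, adjusted permutation p = 0.0495), 8 thalamic genes (r = -0.59, 0.0495) and 5 dentate granule cell genes (r = -0.62, 0.0476), where 4.94%, 2.55% and 4.67% of the other genes were. Gene by gene, Fezf2 had a positive r with 7 of the 10 interneuron genes and 5 of the 5 subicular genes, and with 0 of the 12 striatal, 1 of the 8 thalamic and 0 of the 5 dentate granule cell genes. These counts include nPM_F 1 and are given as a description, and the share of all genes tested with a positive r to Fezf2 is not given. Without nPM_F 1, the library of high striatal genes, the r of Fezf2 was -0.31 with the striatal list (adjusted permutation p = 0.426), 0.62 with the interneuron list (0.0704), 0.56 with the subicular list (0.0974) and -0.53 with the dentate granule cell list (0.111). With the thalamic list it was -0.73 (0.0166) without nPM_F 1 and -0.51 (0.126) without nPM_M 1. The sum of the striatal list was 167 to 191 CPM in Ct_F, 154 to 643 in nPM_F, 169 to 208 in Ct_M and 162 to 219.8 in nPM_M, and 1 of its 12 genes was at 0 in some library. Of the interneuron genes, Vip, the peptide of a class of disinhibitory interneurons, had the highest r, 0.83 with Fezf2 and 0.79 with Tbr1. Genes of GABAergic neurons in general were not uniform. Gad2 was negative, at -0.36 and -0.50, as was Slc32a1, the vesicular GABA transporter, at -0.41 and -0.42. Gad1 was near 0 with Fezf2 (0.07) and at -0.16 with Tbr1. Whether interneurons of hippocampus or of cortex gave this was not tested.

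Cux2 was positive with the mean of the subicular list (r = 0.61, adjusted permutation p = 0.0484). Foxp2 was positive with the thalamic list (r = 0.57, adjusted permutation p = 0.0495) and negative with the CA1 list (r = -0.57, 0.0495), where 2.14% of the other genes were past 0.57 in either direction. Without nPM_M 1 these were 0.43 and -0.46, with adjusted permutation p of 0.177 and 0.133. The thalamic sum was 93.3 to 194 CPM in Ct_F, 83.7 to 111 in nPM_F, 51.5 to 119 in Ct_M and 91.7 to 115 in nPM_M, with all 8 genes past the filter. Rorb was negative with the mean of 10 choroid plexus genes (r = -0.58, adjusted permutation p = 0.0495), where 9.34% of the other genes were past 0.57 in either direction and whose sum ran from 33.9 to 8536 CPM. This r was -0.56 without nPM_M 1 (adjusted permutation p = 0.0626) and -0.49 without nPM_F 1 (0.176). The part of any tissue in the levels of the layer markers was not tested. Without the 2 libraries farthest from the median of each list, Cux2 with the other neocortical genes was the single relation of the 13 that stayed past the adjusted threshold. The other calls were lost with 2 fewer libraries. With the other neocortical genes, r was nearly unchanged for Rasgrf2 (0.634 to 0.637) and slightly lower for Rorb (0.69 to 0.67). For Fezf2 with the interneuron genes r fell from 0.71 to 0.63. The r moved most toward 0 for Fezf2 with the striatal list (-0.40), Foxp2 with the CA1 list (-0.35) and Foxp2 with the thalamic list (0.38). Without nPM_F 1 alone, 2 relations passed, Cux2 with the other neocortical genes and Fezf2 with the thalamic list.

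Among all other genes tested, those among the most alike by Pearson r over the 20 libraries, given as a description, were Mlip (0.94) and Gm11549 (0.91) for Tbr1. For Lamp5 they included Gm11549 (0.90) and Dkkl1 (0.87), and for Cux2 they were Cobl (0.95), Olfm2 (0.91) and Rasgef1b (0.90). The closest to Fezf2 were Kif5a (0.92), Ttc7b (0.91) and Mpped1 (0.91), a gene of the CA1 list. The closest to Rorb were Camk2g (0.85), Gm37345 (0.83) and Brinp3 (0.83), to Rasgrf2 Arhgap20 (0.84), Khdrbs1 (0.79) and Ddx6 (0.79), and to Foxp2 Pbx3 (0.88), Hs3st5 (0.86) and Plcb4 (0.84). Gm11549 was named for both Tbr1 and Lamp5, and no gene was named for Foxp2 and another member. By mean r over the 7 layer markers, the highest included Arhgap32 (0.66), Hecw2 (0.63), Sowahb (0.63), Gm11549 (0.63), Hecw1 (0.62), Tshz3 (0.61), Tbc1d30 (0.61), Tmem132d (0.61) and Brinp3 (0.61).

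The study asked how gestational nPM changed the adult hippocampus. For nPM in both sexes, with sex as a covariate (limma-voom), 0 of the 7 layer markers passed an unadjusted threshold of 0.005, where 0.141% of the genes tested did, and 0 of 7 passed 0.05, where 2.10% did. The log2 differences, nPM minus control, were negative for 7 of 7 genes: -0.24 ± 0.17 (SE) for Tbr1, -0.24 ± 0.21 for Cux2, -0.19 ± 0.14 for Fezf2, -0.16 ± 0.19 for Lamp5, -0.13 ± 0.13 for Rorb, -0.10 ± 0.09 for Rasgrf2 and -0.08 ± 0.37 for Foxp2. Every 95% interval held 0, and the adjusted p over all genes was 0.9998 for each. Without nPM_F 1, nPM_M 1 and Ct_M 1, a choice made after seeing the data, 6 of the 7 were negative and the sizes moved: -0.06 for Tbr1, -0.15 for Cux2, 0.005 for Fezf2, -0.09 for Lamp5, -0.14 for Rorb, -0.13 for Rasgrf2 and -0.60 for Foxp2, and each adjusted p was 0.9997 (limma-voom). The median of the 7 was -0.16, against -0.0059 over all genes tested. Since these genes varied together, their signs are not independent of each other. Of the 16 other neocortical genes, 16 were negative, with a median of -0.27, 3 past the unadjusted threshold of 0.05 and 0 past 0.005.

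**Figure D5:**
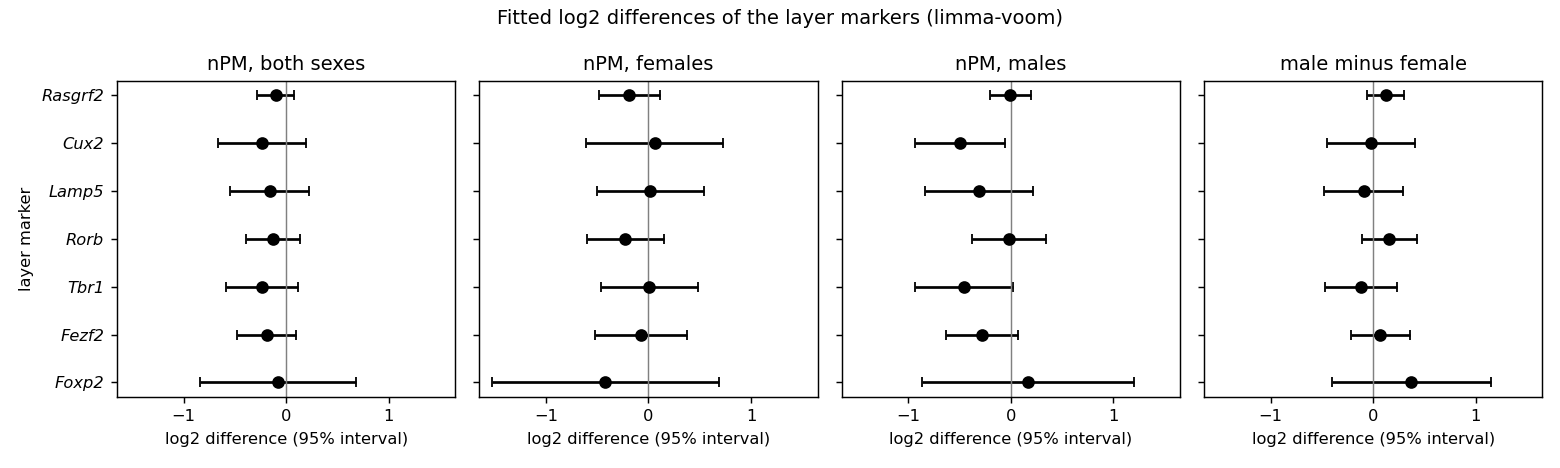
Fitted log2 differences of the 7 layer markers with their 95% intervals (limma-voom), for nPM minus control in both sexes, in females and in males, and for male minus female. Every interval crosses 0 except that of Cux2 in males (-0.93 to -0.05).

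In females, where 0.0909% of the genes tested passed the threshold of 0.005 and 1.99% that of 0.05, 0 of the 7 layer markers passed either, and they were on both sides of 0. Log2 differences were 0.06 ± 0.31 (SE) for Cux2, 0.02 ± 0.24 for Lamp5, 0.01 ± 0.22 for Tbr1, -0.07 ± 0.21 for Fezf2, -0.19 ± 0.14 for Rasgrf2, -0.22 ± 0.17 for Rorb and -0.42 ± 0.51 for Foxp2. Each adjusted p was 0.9999 (limma-voom). Of the other neocortical genes, Tcerg1l was lower in nPM females by 0.95 on the log2 scale (past 0.005 before adjustment, adjusted p = 0.9999 in limma-voom), and its r with the layer markers ran from -0.22 (Lamp5) to 0.49 (Rasgrf2), with -0.01 for Cux2 and 0.39 for Foxp2.

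In males 0.207% of the genes tested passed the threshold of 0.005 and 4.28% that of 0.05, and no layer marker passed the first threshold. Cux2 was the single layer marker past the second, with a log2 difference of -0.49 ± 0.20 (SE; 95% interval -0.93 to -0.05; adjusted p = 0.963 in limma-voom). All 5 nPM males were below the median of the control males, with 22.1 ± 7.72 CPM (SD, n = 5) against 30.0 ± 3.94, but the groups overlapped, and the exact permutation test of log2 CPM gave p = 0.0873 (two-sided; the smallest possible is 0.00794). Tbr1 differed by -0.46 ± 0.22 (95% interval -0.93 to 0.02; exact permutation p = 0.119), Lamp5 by -0.31 ± 0.24, Fezf2 by -0.28 ± 0.16, Rorb by -0.02 ± 0.17, Rasgrf2 by -0.0045 ± 0.09 and Foxp2 by 0.17 ± 0.47. Without nPM_M 1 and Ct_M 1, 2 libraries that stood apart, the difference was -0.47 for Cux2, which was then not past 0.05, -0.32 for Tbr1, and -0.43 for Foxp2, whose sign turned.

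The interaction of sex and nPM (limma-voom) was past 0.005 for 0 of the 7 layer markers, against 0.217% of the genes tested, and past 0.05 for 0 of 7, against 3.79%. It was -0.54 ± 0.40 (SE) for Cux2 and -0.45 ± 0.33 for Tbr1, and each adjusted p was 0.988. The values of females and males above are therefore not shown to differ. Their intervals were wide: for Cux2 that of the interaction ran from -1.38 to 0.30 and for Foxp2 from -0.99 to 2.19.

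Between males and females 31.1% of the genes tested passed the threshold of 0.005 (limma-voom, nPM as a covariate), and 0 of the 7 layer markers did. At 0.05 the share was 48.4% and the count again 0 of 7. Log2 differences, male minus female, were 0.12 ± 0.09 (SE; adjusted p = 0.273) for Rasgrf2, 0.16 ± 0.13 for Rorb, 0.37 ± 0.37 for Foxp2, 0.07 ± 0.14 for Fezf2, -0.02 ± 0.21 for Cux2, -0.09 ± 0.19 for Lamp5 and -0.12 ± 0.17 for Tbr1. The smallest of these SEs, that of Rasgrf2, gave an interval of -0.06 to 0.30, and that of Foxp2 ran from -0.40 to 1.14. In the other lists, 4 of 92 genes passed the threshold of 0.005 (limma-voom): Rprm (0.82, adjusted p = 0.00414), a gene of deep-layer neurons, and Opalin (0.57, 0.00896), a myelin gene, were higher in males, and the subicular genes Fn1 (-0.61, 0.000591) and Ntng2 (-0.74, 0.000425) were higher in females.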

How the data were processed

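RNA of the right hippocampus was sequenced from 20 mice after ribosomal RNA depletion. The authors trimmed reads where needed, aligned them to mm10 with HISAT2 and counted them with featureCounts 1.5.0-p3 on Gencode M11; the strand setting is not given in the sources used here. The deposited values are whole-number counts per gene, not normalized, and a deposited mean RPKM per gene, made by the authors, that was used only to check lengths (largest difference 4.37e-11). A count of 0 would allow up to 3 counts, or 0.0776 to 0.157 CPM, and counting error only is covered. Mitochondrial ribosomal RNA was 9.16% to 13.3% of counts.

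TMM factors and filterByExpr over the 4 groups (minimum count 10, minimum total 15) came from edgeR 4.0.16, and limma 3.58.1 (voom, R 4.3.3) was fitted to all genes, with p under 0.005 as in the methods and Benjamini-Hochberg adjustment. Correlations used log2 CPM with 0.5 counts added and 100000 permutations of the pairings (two-sided; scipy 1.17.1, numpy 2.4.6). Alternatives were edgeR's quasi-likelihood test, DESeq2 1.42.0, other scaling, filters and offsets, age, a replicate block, residuals, ranks, and leaving out libraries. Scripts were tested on simulated data. All 7 members, the 3 genes of a list closest to their mean where a result turned on them, list genes past p 0.005 in a fit, and the genes most like each member were named, apart from some that are not reported here. The members and lists were chosen with earlier results of these data known. The methods give 5 litters per exposure, so some of the 10 mice of an exposure had the same dam, which the labels do not name; p-values measure the spread between these mice and take no account of litter. Promoters were matched by symbol in RefSeq (GRCm38.p6) for 6 of the 7 members, without Foxp2.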

Additional observations from a re-analysis of the deposited data

Results flagged for a closer look

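In 28 groups of 5 (7 layer markers in 4 groups), 1 library was set apart from its group by a gap above Dixon's 95% critical value of 0.71, a rate near that of chance, which gives about 1 in 20. It was nPM_M 1 for Foxp2, at 30.51 CPM against 7.35 CPM in the nearest nPM male, a gap of 0.727 of the range. This library also held the lowest Tbr1 and Lamp5.

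Of 44 groups of 5 for the marker lists, 5 held such a library. The mean log2 CPM of the striatal genes was 4.60 in nPM_F 1 against 2.34 in the nearest nPM female, and that library held the lowest Fezf2 and Rorb. In nPM_M 1 the thalamic genes were at 3.16 against 2.53 in the nearest nPM male, and the CA1 genes at 5.41 against 5.86. By summed CPM the thalamic genes of nPM_M 1 did not stand apart, at 115.0 against 115.3 in nPM_M 2. In Ct_M 1 the CA3 genes were at 3.71 against 4.44 in the nearest control male, and the oligodendrocyte genes at 6.94 against 7.76, while its layer markers were within the range of the other libraries. No layer marker differed between the sexes in its response to nPM by the interaction test. Whether tissue other than hippocampus gave these levels was not tested.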

How the results depend on the processing

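With 5 mice a group and the spreads above, only differences larger than the intervals could be seen. The count of 0 layer markers past the threshold of 0.005 was found in each of the 5 fits under each alternative tried (edgeR, DESeq2, RLE scaling, no filter, replicate block, age where fitted, 1 fit of the 4 groups, leaving out each replicate: range 0 to 0). The replicate block changed no call in these fits. Numbers do not pair the mice: deviations of same-numbered samples correlated at -0.40 to 0.16, and in 1 of 10 pairs the own number was the best match.

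Of the 21 pairs, 7 varied together. With differences between equal numbers (replicate block) 3 did, without the 2 farthest libraries 12, and without nPM_M 1, nPM_F 1 and Ct_M 1 (chosen after seeing the data) 13; leaving out 1 library gave 4 to 10. Of the 77 relations with lists, 13 passed. In residuals from the group means 6 did, under the replicate block 4, with Spearman's rho 6, without the 2 farthest libraries 2, and without the trio of libraries 8; leaving out 1 library gave 2 (without nPM_F 1) to 13. The causes of these changes in count were not tested.

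No layer marker that turned in sign was past a threshold, before or after. In females Cux2 was at -0.0624 in edgeR, -0.0676 in DESeq2 and -0.0014 with age as a covariate, Lamp5 at -0.0021, -0.0075 and -0.0183, and Tbr1 at -0.0082 in 1 fit of the 4 groups. In males Rasgrf2 was at 0.0024 in edgeR, 0.0004 in DESeq2 and 0.0057 without a filter, and Rorb at 0.001 in edgeR. Without the trio of libraries, Fezf2 was at 0.005 in both sexes, Foxp2 at -0.43 in males, Rorb at -0.0391 for the interaction, and Lamp5 at 0.0256 and Fezf2 at -0.0096 for male minus female. Leaving out 1 library gave ranges that crossed 0: Foxp2 from -0.37 to 0.0597 in both sexes; in females Cux2 from -0.0929 to 0.30, Lamp5 from -0.13 to 0.17, Tbr1 from -0.10 to 0.20 and Fezf2 from -0.21 to 0.15; in males Rasgrf2 from -0.0709 to 0.0347, Rorb from -0.13 to 0.0749 and Foxp2 from -0.32 to 0.42; for male minus female Cux2 from -0.11 to 0.0749 and Fezf2 from -0.0211 to 0.14.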

Other observations

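Genes of the lists with a high r to the mean of the standardized layer markers, given as a description over the 20 libraries that they share, included Cplx3 (0.83) and Otof (0.72) of the other neocortical genes and Vip (0.80), Pvalb (0.60) and Reln (0.45) of the interneuron genes, where Ndnf stood at -0.27 and Slc32a1 at -0.15. In the subicular list the closest were Slc17a6 (0.52), Nr4a2 (0.33) and Nts (0.32), and in the thalamic list Ramp3 (0.39), Tnnt1 (0.13) and Slitrk6 (0.01). In the CA1 list Mpped1 stood at 0.45, but Fibcd1 at -0.52, Man1a at -0.38 and Spink8 at -0.21, and in the CA3 list Coch stood at 0.41, with the other 4 genes from -0.41 to -0.39. In the dentate granule cell and choroid plexus lists even the closest genes were negative, Tdo2 at -0.09 and Otx2 at -0.31.

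Within the interneuron list the layer markers parted by gene. Lhx6, a factor of interneurons born in the medial ganglionic eminence, had r = 0.77 with Fezf2 and -0.44 with Foxp2. Gad2, which makes GABA in all these cells, had r = -0.36 with Fezf2 and 0.71 with Foxp2, and Gad1 had 0.07 and 0.68. Foxp2 also had r = 0.76 with Tnnt1 of the thalamic list, 0.62 with Tac1 of the striatal list and 0.81 with Syt6 of the other neocortical list. These genes were chosen after their values were seen.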
